A study of Homo sapiens with 4 samples.

Results

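The proteasome is the protease that destroys proteins marked with ubiquitin. Its subunits and assembly factors were picked from the count matrix by symbol, as every gene named PSMA, PSMB, PSMC, PSMD, PSME, PSMF or PSMG with a number, together with POMP, which gave 48 of 15357 listed genes. Of these, 47 passed the filter on low counts that 11955 genes passed. The exception was PSMB11, the beta subunit of thymic epithelium, listed at 0 and 0 counts in vector cells and at 1 and 2 counts in shCHD7_2 cells. PSMA8, the alpha subunit of germ cells, was not among the 48 genes and is not analysed here.

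RNA-seq was measured in RKO, a human colorectal cancer cell line, in 4 samples from oligo-dT selected libraries. The 2 vector samples carried a lentiviral control shRNA and the 2 shCHD7_2 samples a lentiviral shRNA against CHD7, a chromatin remodeler of the CHD family, and both were kept as stable lines, with no drug or cytokine named in the labels. A single shRNA stands for the loss of CHD7, so an effect of that loss and an effect of that hairpin cannot be told apart. The labels do not say whether replicates were separate cultures, so p-values measure the spread between these samples, which may be technical. The libraries held 15734679 and 16068650 estimated counts in vector cells, and 15749624 and 15771482 in shCHD7_2 cells. CHD7 itself stood at 85.4 and 91.0 CPM (counts relative to library size, scaled by TMM) in vector cells against 55.5 and 50.1 in shCHD7_2 cells, a log2 fold change, here always shCHD7_2 against vector, of -0.74 (SE 0.088, edgeR quasi-likelihood test, adjusted p = 4.2e-06). Of 8 epithelial markers 6 were listed, and KRT19 and VIL1 were not. EPCAM, KRT8, KRT18 and the intestinal factor CDX2 were expressed, while CDH1 and KRT20 had at most 1 count in any sample. The summed FPKM (fragments per transcript length and library size) of the 6 was 81.2 and 75.3 in vector cells against 81.6 and 90.3 in shCHD7_2 cells. Blood cells carry immunoproteasome without induction. Of 7 blood markers 4 were listed, and CD79A, LYZ and CD14 each had under 10 counts in every sample, while CD68, a lysosomal protein of macrophages, stood at 529 and 495 FPKM against 602 and 611. The 2 fibroblast markers listed of 6, COL1A1 and LUM, had under 10 counts in every sample.

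The barrel of the enzyme, the 20S core, is built of outer rings of alpha subunits, which gate the entrance, and inner rings of beta subunits, of which PSMB5, PSMB6 and PSMB7 cut proteins. The 19S cap, made of PSMC ATPases and PSMD subunits, binds ubiquitin chains, unfolds the substrate and threads it into the core. Under interferon gamma, cells make PSMB8, PSMB9 and PSMB10 in place of PSMB5, PSMB6 and PSMB7, and they make the PA28 cap from PSME1 and PSME2, forms known for supplying peptides to MHC class I. POMP, PSMG1 to PSMG4, PSMD5, PSMD9 and PSMD10 are chaperones that help the core or the cap assemble and are not part of the finished enzyme. Cancer cells depend on this enzyme, which is the target of bortezomib.

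The promoters of 4 interferon-inducible members that hold the same 10-letter match to an interferon response type motif are shown first, since they include PSME2, the member that rose, and its partner PSME1. PSMG4, an assembly chaperone, holds the same letters at bases -33 to -24 and is not printed. Each line gives 30 bases of the GRCh38.p14 promoter, 5′ to 3′ on the strand of the gene, with the match in capitals. The windows are chr14:24136189-24136218 on the plus strand for PSME1, chr14:24146619-24146648 on the minus strand for PSME2, chr6:32844032-32844061 on the minus strand for PSMB8 and chr16:67936852-67936881 on the minus strand for PSMB10.
PSME1: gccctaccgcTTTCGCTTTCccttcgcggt
PSME2: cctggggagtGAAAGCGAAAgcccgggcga
PSMB8: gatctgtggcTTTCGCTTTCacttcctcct
PSMB10: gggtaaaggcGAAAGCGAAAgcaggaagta
Counted from an annotated start, the match covered bases 6 to 15 after the start in PSME1, -28 to -19 in PSME2, -4 to 6 in PSMB8 and -21 to -12 in PSMB10. The PSMB8 positions count from the start at base 32844047, since the window of another PSMB8 start, at base 32844679, lacked the match. In PSME2 and PSMB10 it lay on the opposite strand and reads as the reverse complement of that in PSME1 and PSMB8, as it does in PSMG4.

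Proteasome genes as a group moved little in shCHD7_2 cells. With p-values of the edgeR quasi-likelihood test adjusted by Benjamini-Hochberg over all 11955 genes, 1 of 47 members was higher at an adjusted p under 0.05 (PSME2) and 1 was lower (PSMB2). Among all genes tested, 4.94% were higher and 6.54% lower, together 11.5%, against 4.26% of the members. No member passed the study's second criterion, a fold of at least 1.5 with that adjusted p, which 2.88% of all genes passed. Without adjustment, 7 members had p under 0.05, or 14.9% of them against 25.4% of all genes. The 2 groups did not overlap in CPM for 21 members, 9 higher and 12 lower, which is 44.7% against 53.7% of all genes.

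Log2 fold changes of the members ran from -0.25 (PSMB2) to 0.29 (PSMG4), 23 above 0 and 24 below. Their median was -0.0029 beside 0.00056 for all genes tested, and the median of their absolute values was 0.085 beside 0.133. The 95% intervals of 46 members lay wholly within a 1.5-fold change either way. The interval that passed 1.5-fold was that of PSMG4, a core assembly chaperone with low counts. Members were measured more precisely than most genes, with a median SE of 0.080 against 0.096, and 42 of them stood above the all-gene median of 38.4 CPM. The summed counts of the 48 genes made up 0.698% and 0.701% of the vector libraries and 0.713% and 0.735% of the shCHD7_2 libraries.

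**Figure D1:**
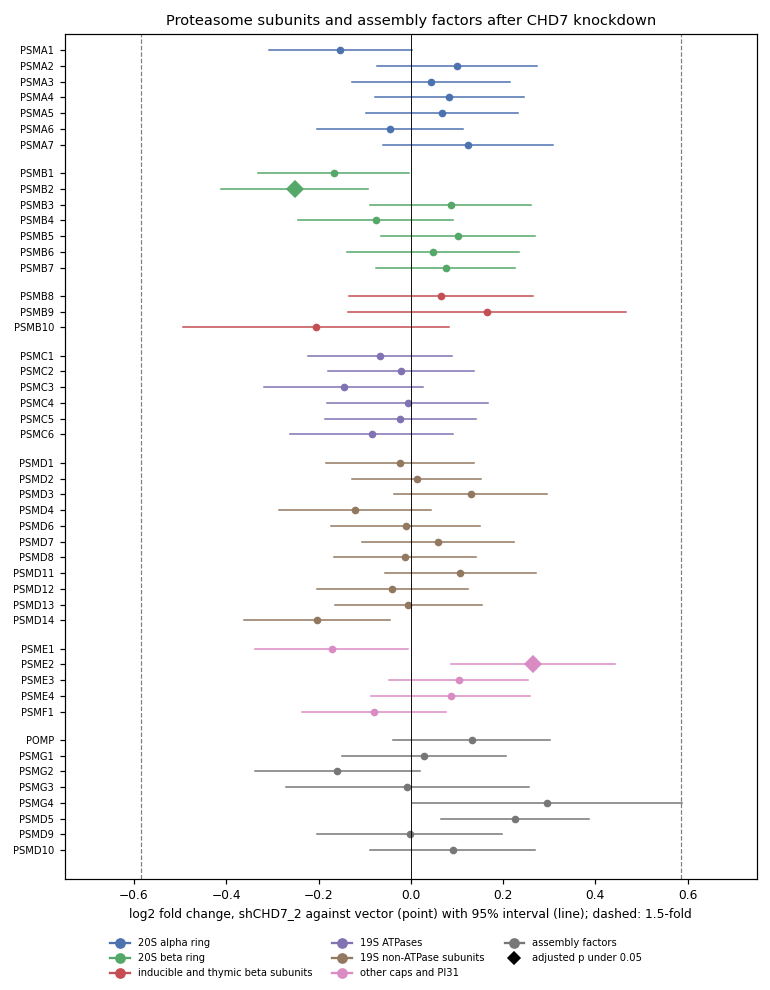
Log2 fold change of each of 47 proteasome genes, shCHD7_2 against vector, with its 95% interval, in the order alpha ring, beta ring, inducible beta subunits, 19S ATPases, 19S non-ATPase subunits, other caps and PI31, and assembly factors; diamonds mark an adjusted p under 0.05 and dashed lines a 1.5-fold change. PSMB2 and PSME2 carry the diamonds, and PSMG4 has the single interval that reaches a dashed line.

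Levels per transcript length (FPKM, as deposited) differed far more between members than between conditions. The mean over the 4 samples ran from 15.15 FPKM for PSMB10 to 530.8 FPKM for PSMB7, a ratio of 35.0. Between the 2 samples of a group, by contrast, a member differed by a median of 1.04-fold in vector cells and 1.06-fold in shCHD7_2 cells, and at most by 1.31-fold, in PSMG3. After PSMB7 the most abundant transcript was PSMD2, the large scaffold subunit of the 19S base, at 349 and 355 FPKM against 366 and 363. In the alpha ring, whose subunits are present in equal number in the particle, mean levels ran from 32.5 FPKM (PSMA5) to 223 FPKM (PSMA7), and in the beta ring from 36.0 FPKM (PSMB2) to 530.8 FPKM (PSMB7). The low ends depend on the division by transcript length. In vector cells PSMA5 stood at 113 and 120 CPM, above PSMA3 at 80.8 and 84.8. PSMB2 stood at 180 and 178 CPM there, above PSMB6 at 86.0 and 82.5. The 6 ATPases, which also form a ring of equal parts, stayed within 54.0 (PSMC6) to 108.6 FPKM (PSMC1). Neighbours in the order could not always be separated. PSMA7 and PSMA1 overlapped in their samples, as did PSMB1 and PSMB5, PSMC4 with PSMC2 and PSMC2 with PSMC6, and PSMB9 and PSMB10.

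**Figure D2:**
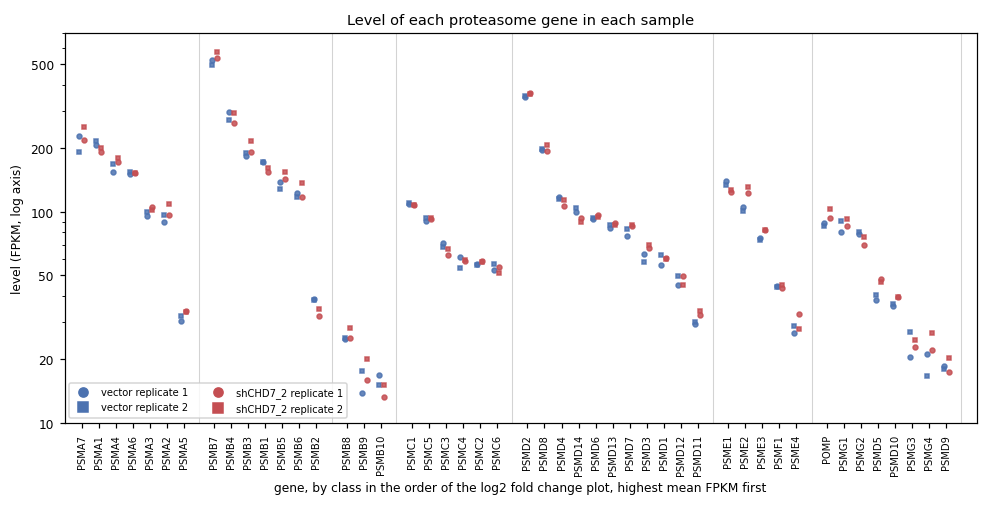
FPKM (log axis) of each of 47 proteasome genes in the 4 samples, grouped by class and ordered by mean level; blue marks vector and red shCHD7_2, circles replicate 1 and squares replicate 2. In each class the range of levels across genes is wider than the range between the samples of any gene in it, and PSMB7 stands highest at a mean of 530.8 FPKM.

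None of the 7 alpha subunits passed the test. These subunits gate the core and dock its caps. Their log2 fold changes ran from -0.15 (PSMA1) to 0.12 (PSMA7) with a median of 0.068, and the smallest adjusted p was 0.205, that of PSMA1. PSMA1 stood at 227 and 240 CPM in vector cells against 204 and 215 in shCHD7_2 cells, so the groups were apart. PSMA7, the most abundant alpha subunit, stood at 201 and 171 CPM against 186 and 219, so its groups overlapped.

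The beta ring held the member that fell. PSMB2, a structural beta subunit with no protease site (chromosome 1, 35599544 to 35641844, minus strand, GRCh38), had 2797 and 2817 estimated counts in vector cells and 2321 and 2496 in shCHD7_2 cells. On the CPM scale this was 180 and 178 against 145 and 156, with both shCHD7_2 samples below both vector samples. The log2 fold change was -0.25 (SE 0.077, edgeR adjusted p = 0.035), a fall to 0.840 of the vector level with a 95% interval of 0.752 to 0.938. PSMB2 was lower in all 12 alternative analyses, with log2 fold changes of -0.31 to -0.20, and passed the threshold in 2 of them, with adjusted p from 0.012 to 0.252. Its call was lost without vector replicate 1 (adjusted p = 0.230), without vector replicate 2 (0.252) and without shCHD7_2 replicate 1 (0.125). No other gene shares its exons in GENCODE 29.

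The 3 catalytic subunits of the standard core were not called. PSMB5, which carries the chymotrypsin-like site that bortezomib blocks, stood at 158 and 145 CPM in vector cells against 154 and 171 in shCHD7_2 cells, a log2 fold change of 0.10 (SE 0.081, edgeR adjusted p = 0.46). PSMB6, which carries the caspase-like site, stood at 86.0 and 82.5 CPM against 79.9 and 94.4, a log2 fold change of 0.05 (SE 0.090, adjusted p = 0.78). PSMB7, which carries the trypsin-like site, stood at 453 and 430 CPM against 447 and 483, a log2 fold change of 0.08 (SE 0.073, adjusted p = 0.56). In each of these genes the samples of the groups overlapped. The 95% intervals ran from 0.956 to 1.21 times the vector level for PSMB5, from 0.909 to 1.18 for PSMB6 and from 0.949 to 1.17 for PSMB7. The remaining beta subunits, which are structural, had log2 fold changes of -0.17 (PSMB1), -0.08 (PSMB4) and 0.09 (PSMB3), and none passed the test.

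The inducible catalytic subunits were detected in every sample at low levels and were not called. PSMB8, which replaces PSMB5, stood at 34.3 and 34.3 CPM in vector cells against 34.0 and 37.7 in shCHD7_2 cells, a log2 fold change of 0.07 (SE 0.096, edgeR adjusted p = 0.72). PSMB9, which replaces PSMB6, stood at 12.4 and 15.8 CPM against 13.9 and 17.8, a log2 fold change of 0.16 (SE 0.145, adjusted p = 0.52). PSMB10, which replaces PSMB7, stood at 14.5 and 13.0 CPM against 11.0 and 12.8, a log2 fold change of -0.21 (SE 0.139, adjusted p = 0.38). Among these only PSMB10 had groups that did not overlap in CPM, with both shCHD7_2 samples lower. In FPKM the PSMB10 groups overlapped, at 16.89 and 15.15 in vector cells against 13.35 and 15.21 in shCHD7_2 cells. Intervals were wider than for the standard subunits, at 0.912 to 1.20 times the vector level for PSMB8, 0.910 to 1.38 for PSMB9 and 0.710 to 1.06 for PSMB10. PSMB8 and PSMB9 lie side by side on chromosome 6 on opposite strands (32840717 to 32844703 and 32844136 to 32859585, GRCh38), where 139 exonic bases overlap. Whether the counting used strand is not given in the sources used here.

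Each inducible subunit was set against the standard subunit whose place it takes, as a ratio of FPKM in the same sample. PSMB8 stood at 0.179 and 0.198 of PSMB5 in vector cells and at 0.176 and 0.182 in shCHD7_2 cells, and the groups overlapped. PSMB9 stood at 0.113 and 0.1495 of PSMB6 against 0.1355 and 0.147, again with overlap. PSMB10 stood at 0.0323 and 0.0306 of PSMB7 against 0.0249 and 0.0267. The PSMB10 ratio was lower in both shCHD7_2 samples, by 0.28 on the log2 scale beside a within-group SD of 0.064. That SD rests on 2 samples a group and is below the fitted SEs of PSMB10 (0.139) and PSMB7 (0.073). PSMB10 had only 177 to 225 counts in a sample. With 2 samples a group no exact permutation test can go below a two-sided p of 0.333, so these ratios were not tested. Standard subunits exceeded their inducible partners in all 4 samples.

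**Figure D3:**
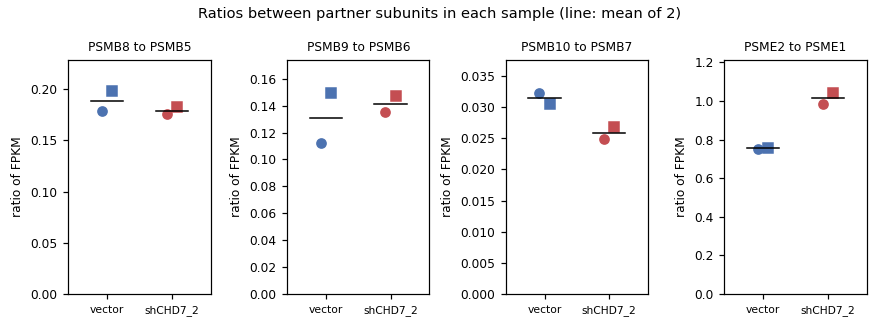
Ratio of FPKM between partner subunits in each sample (circle replicate 1, square replicate 2, line the mean of 2, axes from 0). The PSMB8 to PSMB5 and PSMB9 to PSMB6 ratios overlap between groups, the PSMB10 to PSMB7 ratio is lower in shCHD7_2 cells, and the PSME2 to PSME1 ratio rises from 0.753 and 0.755 to 0.987 and 1.04.

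None of the 6 ATPases of the 19S base, the motor that unfolds substrates, passed the test. Their log2 fold changes ran from -0.15 (PSMC3) to -0.01 (PSMC4) with a median of -0.045, and the smallest adjusted p was 0.283. All 6 values were below 0 with TMM scaling, where the all-gene median was 0.00056. With library totals in its place they lay on both sides of 0. Their median was then -0.00098, beside an all-gene median of 0.0445. PSMC1 and NRDE2, on opposite strands, share 75.8% of the exonic bases of PSMC1, and NRDE2 had 235 to 277 counts against 2418 to 2522 for PSMC1.

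None of the 11 non-ATPase subunits of the 19S cap passed the test. Log2 fold changes ran from -0.20 (PSMD14) to 0.13 (PSMD3) with a median of -0.011. PSMD14, the deubiquitinase that strips the chain from a substrate, stood at 158 and 164 CPM in vector cells and at 142 and 138 in shCHD7_2 cells, so its groups were apart (log2 fold change -0.20, edgeR adjusted p = 0.091). PSMD4, a ubiquitin receptor, had a log2 fold change of -0.12. The scaffold subunits PSMD1 and PSMD2 had values of -0.02 and 0.01, and PSMD2, at 1012 to 1035 CPM, had an interval of 0.916 to 1.11 times the vector level.

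The member that rose belongs to the PA28 cap. PSME2, the PA28 beta subunit (chromosome 14, 24143362 to 24147570, minus strand, GRCh38), had 1126 and 1099 estimated counts in vector cells and 1307 and 1424 in shCHD7_2 cells. On the CPM scale this was 72.5 and 69.6 against 81.5 and 89.2, with both shCHD7_2 samples above both vector samples. The log2 fold change was 0.26 (SE 0.086, edgeR adjusted p = 0.047), or 1.20 times the vector level with a 95% interval of 1.06 to 1.36. PSME2 was higher in all 12 alternative analyses, at 0.20 to 0.32, and passed the threshold in 5 of them, with adjusted p from 0.016 to 0.397. Its call was lost without vector replicate 1 (adjusted p = 0.170), without vector replicate 2 (0.397) and without shCHD7_2 replicate 2 (0.236). PSME2 shares 216 exonic bases, 6.03% of its own, with RNF31 on the opposite strand, which had 566 and 562 counts in vector cells and 613 and 599 in shCHD7_2 cells. The part of those bases in the PSME2 value was not tested.

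Its partner was not called. PSME1, the PA28 alpha subunit, whose gene lies nearby (chromosome 14, 24136158 to 24138967, plus strand, GRCh38), stood at 120 and 115 CPM in vector cells against 103 and 106 in shCHD7_2 cells. The log2 fold change was -0.17 (SE 0.080, edgeR adjusted p = 0.179), and its groups were apart. The ratio of PSME2 to PSME1, which was taken up after the values of both had been seen, was 0.753 and 0.755 in vector cells and 0.987 and 1.04 in shCHD7_2 cells on the FPKM scale. The difference was 0.43 on the log2 scale beside a within-group SD of 0.039. That SD rests on 2 samples a group and is below the fitted SEs of PSME2 (0.086) and PSME1 (0.080). The difference ran from 0.39 to 0.47 when each sample was left out in turn. It is a description only, since the pair was picked from these same values, and it was not tested. Both promoters hold the match printed above. PSME3, the nuclear PA28 gamma, PSME4, the PA200 cap, and PSMF1, the inhibitor PI31, had log2 fold changes of 0.10, 0.09 and -0.08 and were not called.

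The 8 assembly factors were not called. POMP, which escorts the immature core until the beta subunits have cut themselves free, stood at 117 and 113 CPM in vector cells against 119 and 133 in shCHD7_2 cells, a log2 fold change of 0.13 (SE 0.082, edgeR adjusted p = 0.33). Both shCHD7_2 samples were above both vector samples. PSMD5, a chaperone that holds part of the 19S base, stood at 129 and 136 CPM against 157 and 154. Its log2 fold change of 0.23 had an adjusted p of 0.061 by edgeR, and it passed the threshold in 3 of 12 alternatives, with library totals and in both filtered fits of limma on FPKM. The 4 PSMG chaperones, which build the alpha ring, ran from -0.16 (PSMG2) to 0.29 (PSMG4). PSMG4 had the highest fold change of any member and a wide error (SE 0.141, adjusted p = 0.192), from 15.01 and 11.66 CPM against 15.03 and 17.67. PSMD9 and PSMD10, the other 19S chaperones, had log2 fold changes of -0.0029 and 0.09.

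**Figure D4:**
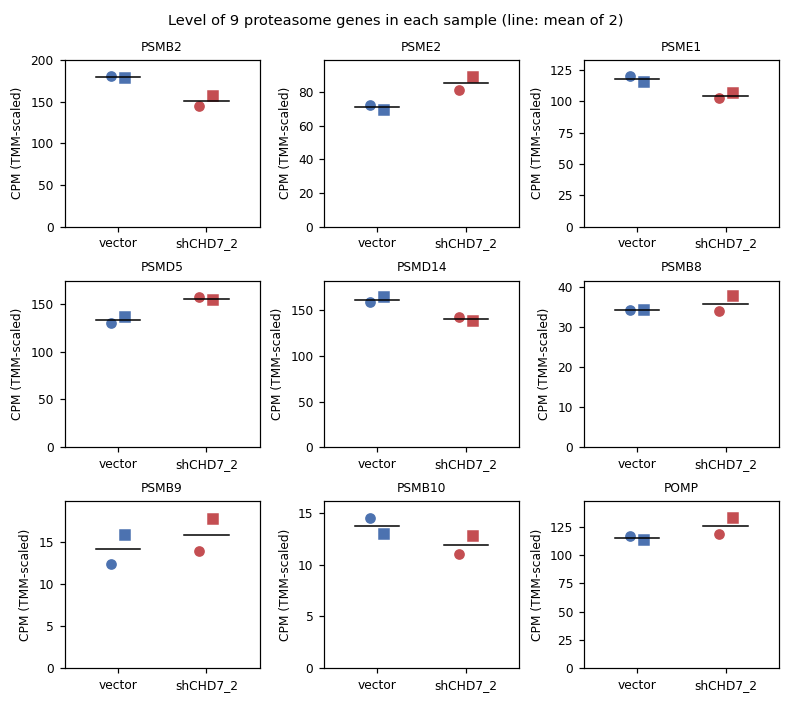
TMM-scaled CPM of 9 proteasome genes in each sample (circle replicate 1, square replicate 2, line the mean of 2, axes from 0). PSMB2, PSME1 and PSMD14 sit lower in shCHD7_2 cells and PSME2 and PSMD5 higher, of which PSMB2 and PSME2 passed the test, while PSMB8 and PSMB9 overlap between groups.

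Around the enzyme itself, 41 further genes that supply ubiquitin, carry substrates, belong to or bind a cap, set proteasome transcription or use its peptides were all tested. None was higher and 3 were lower at an adjusted p under 0.05, or 7.32% against the 11.5% of all genes, and 1 also passed 1.5-fold. Their median log2 fold change was -0.044.

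The largest change was in the supply of ubiquitin. UBA6, an enzyme that activates ubiquitin at the head of the cascade (chromosome 4, 67612652 to 67701179, minus strand, GRCh38), stood at 188 and 197 CPM in vector cells and at 121 and 105 in shCHD7_2 cells. Its log2 fold change was -0.76 (SE 0.083, edgeR adjusted p = 1.06e-06), and it was lower in all 12 alternatives and past the threshold in 11 (the exception was limma without a filter, adjusted p = 0.109). UBA1, the main enzyme of that step, did not pass the test. UBQLN4, a shuttle that brings ubiquitinated proteins to the cap, stood at 120 and 114 CPM against 92.9 and 90.9, a log2 fold change of -0.35 (SE 0.081, adjusted p = 0.0057) that held in 8 of 12 alternatives and was lost without vector replicate 1 (adjusted p = 0.106). The remaining 12 genes of this class, among them the unfoldase VCP and the RAD23 shuttles, were not called.

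Of 14 further cap subunits and bound factors, mostly of the 19S cap, 1 was lower. UCHL5, a deubiquitinase docked on the cap by ADRM1, stood at 140 and 157 CPM against 129 and 119, a log2 fold change of -0.26 (SE 0.083, edgeR adjusted p = 0.046). It passed the threshold in 2 of 12 alternatives, with log2 fold changes of -0.34 to -0.17, and lost it without either vector replicate (adjusted p = 0.0636 and 0.570) and without shCHD7_2 replicate 2 (0.175). The other cap-bound deubiquitinase, USP14, had a value of 0.02.

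The route that raises proteasome gene transcription when the enzyme falls short, NFE2L1 with its processing factors DDI2 and NGLY1, and NFE2L2 gave no call. NFE2L1 stood at 165 and 158 CPM in vector cells against 184 and 192 in shCHD7_2 cells, with a log2 fold change of 0.22 and an adjusted p of 0.067 by edgeR. The 9 genes of the peptide antigen route, which carry proteasome products to MHC class I, had log2 fold changes of -0.22 (ERAP1) to 0.31 (NLRC5), none called. The peptide transporter subunits TAP1 and TAP2, which work as a pair, had values of -0.21 and 0.21.

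**Figure D5:**
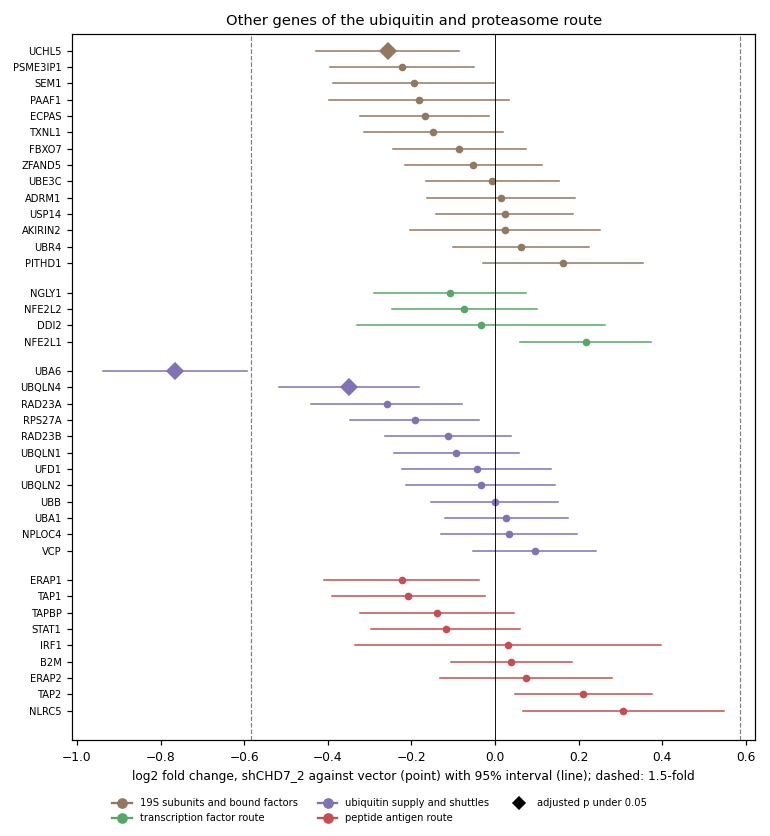
Log2 fold change, shCHD7_2 against vector, with its 95% interval for other genes of the ubiquitin and proteasome route in 4 classes; diamonds mark an adjusted p under 0.05 and dashed lines a 1.5-fold change. UBA6 at -0.76 lies past the 1.5-fold line, UBQLN4 and UCHL5 lie closer to 0, and no gene on the right carries a diamond.

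Promoters were searched in RefSeq windows of 250 bases before to 50 after the start, on both strands, for 42 of 48 members. PSMA7, PSMB1, PSMB6, PSMB7, PSMD4 and PSMG3 had no entry. A member or tested gene held a motif if any of its windows matched. Shares of all promoters count single windows of all genes, so they are not on the same footing. The interferon response type motif, TTTC followed by any 2 bases and by TTTC again, was present in 7 members (16.7%) against 3.94% of tested genes and 3.57% of all 35116 promoters. Those 7 were PSMA4, PSMB4, PSMB8, PSMB10, PSME1, PSME2 and PSMG4, of which PSMA4 and PSMB4 match with other letters at the free bases. Their log2 fold changes, of which that of PSME2 alone passed the test, were 0.08, -0.08, 0.07, -0.21, -0.17, 0.26 and 0.29 in that order.

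Of the other motifs, CCAAT was in 20 members (47.6%, against 43.5% of tested genes and 34.6% of promoters) and the ETS type letters CCGGAAG in 15 (35.7%, against 23.5% and 10.3%). The antioxidant response type letters TGANNNNGC were in 27 (64.3%, against 50.7% and 41.8%), the AP-1 type letters TGACTCA, which can overlap them, in 3 (7.14%, against 4.73% and 4.95%) and the nuclear respiratory factor 1 type letters GCATGCGC in 2 (4.76%, against 6.65% and 3.05%). PSMB2 held CCAAT and the antioxidant type letters, and PSME2 the antioxidant and interferon type letters. These matches are letters in a window and say nothing of what binds there.

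The 3′ UTRs were searched for 3 short words. The word AGCTATT was known beforehand, from these same data, to be frequent in lower genes. The same held for the word GAAGCTA, and for the third word searched, GCTATTA, so their presence here is a description. PSMB2, UBA6, UBQLN4 and UCHL5, all 4 of the lower genes above, held at least 1 of these words in the longest 3′ UTR of GENCODE 29, and no word was common to all of them. The sites are printed 5′ to 3′ with the word in capitals.
PSMB2: gtggttaaAGCTATTAaaacagtg
UBA6: ttaattcaGAAGCTAaagaaaat
UBQLN4: agcccaatGAAGCTAagcgccac
UCHL5, base 285: taccatatGAAGCTAgaaaatgc
UCHL5, base 2167: taagtcatGAAGCTAgagggtag
UCHL5, base 2965: accactctAGCTATTtgaagagg
The PSMB2 site, where AGCTATT and GCTATTA overlap, starts at base 1421 of a 3723 base UTR, the UBA6 site at base 62 of 6345, the UBQLN4 site at base 869 of 1677 and the UCHL5 sites at bases 285, 2167 and 2965 of 4101. Proteasome genes seldom carried the words. They were present in 5 of 47 members (10.6%; PSMA7, PSMB2, PSMC1, PSMD14 and PSMF1), against 22.35% of 11693 tested genes, and in 13 of the 41 other genes (31.7%). Members also had short UTRs, with a median of 368 bases against 1360 for all genes and 1824 for the other 41. Of the 5 members with a word, 4 had log2 fold changes below 0 and PSMA7 was above. Of the 18 members and other genes with a word, 14 were not called, among them TAP2 at 0.21 and USP14 at 0.02. The part of these words in the values was not tested.

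Counts per gene that are not whole mark reads split between genes by the authors' estimation. Of the 48 members 47 had whole counts in all samples, the exception being PSMC2, while 19.05% of listed genes had a non-whole count in at least 1 sample. In GENCODE 29, 23 members had exons that overlap another gene, 14 of them a gene listed in the table. PSMB10 shares 34.75% of its exonic bases with AC040162.1, a protein-coding gene on the same strand that is not listed. Such genes also share 24.66% of the exonic bases of PSMA1, 14.9% of PSMD9, 14.64% of PSMA2 and 14.13% of PSMA6. The values of these members, PSMB10 among them, are therefore uncertain.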

How the data were processed

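RNA-seq of 2 vector and 2 shCHD7_2 samples of RKO cells was analysed from estimated counts and FPKM, each deposited for the whole series. Per the labels and the submitters' processing notes, RNA was extracted with Trizol, libraries were made with oligo-dT beads, and Bowtie2, RSEM, DESeq2 and the build hg38 were used, with versions not given in the sources used here. The authors deposited estimated counts per gene, not normalized, of which 13.6% to 14.7% per sample were not whole numbers. The authors also deposited FPKM, which is scaled by library and transcript length. RSEM divides ambiguous reads among genes, which makes values of genes with near-identical copies less certain.

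Groups and replicate numbers came from the sample titles. Counts were rounded, filtered with filterByExpr (11955 of 15357 genes kept), scaled by TMM and tested with the quasi-likelihood test of edgeR 4.0.16 in R 4.3.3, with Benjamini-Hochberg adjustment over all genes kept. The SE of a log2 fold change was taken from the F statistic, and 95% intervals from its t distribution. The biological coefficient of variation was 0.0579. With 2 samples a group, the spread between samples rests on information shared across genes. Calls used an adjusted p under 0.05, with or without a fold of at least 1.5. DESeq2 1.42.0, other scalings, no filter, a replicate block, limma 3.58.1 on log2(FPKM + 1) or log2(FPKM + 0.1), and each sample left out were the alternatives. The edgeR step was tested on simulated data.

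The members and all lists were chosen with earlier results of these data known. Full statistics are given for PSMB5 to PSMB10, POMP, CHD7, every other member with an adjusted p under 0.05 (up to 15) and up to 6 such genes of the surrounding route. PSMD5, PSMD14, PSME1 and PSMG4 were described after their values were seen, as was the PSME2 to PSME1 ratio. Promoters came from RefSeq (GRCh38.p14), gene positions, exon overlaps and 3′ UTRs from GENCODE 29 (GRCh38). No protein sequence was used here. The values of 2 genes of the surrounding route are not reported here and are left out of its plot.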

Additional observations from a re-analysis of the deposited data

How the results depend on the processing

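The call of PSME2 and that of PSMB2 were each at the edge of the threshold. In place of 1 member higher and 1 lower, 2 were higher (PSME2 and PSMD5) and 0 lower with library totals and in both limma fits on FPKM filtered at a mean of at least 1, and 0 were higher and 0 lower with DESeq2, without the filter on low counts, with the replicate block and in limma without a filter. When each sample was left out, 0 to 1 members were higher and 0 to 1 lower. No member was called with a fold of at least 1.5 in any alternative. The largest log2 fold change of a member in any alternative was 0.486 in size (PSMG4), and 28 of 47 members kept their sign in all 12. Over all genes, 1373 calls became 800 with DESeq2, 197 without the filter, 755 with the replicate block, 24 in limma without a filter and 610 to 1702 with a sample left out. Calls that also passed 1.5-fold, 344, became 219, 141, 172 and 23 with DESeq2, without the filter, in limma on log2(FPKM + 1) with the filter and in limma without it. The median of the members moved from -0.0029 to 0.041 with library totals. In limma it was 0.0426 and 0.0433 with the filter and pseudocounts of 1 and 0.1, and 0.0426 without the filter. The median of all genes tested moved as well, from 0.00056 to 0.0445 with library totals. In limma that all-gene median was 0.038 and 0.0417 with the filter, and 0.0223 without it. With a sample left out the member median ran from -0.0209 to 0.0272 and the all-gene median from -0.0046 to 0.0041. CHD7 fell by 0.51 on the log2 scale in limma without a filter and no longer passed (adjusted p = 0.1035). Among the genes given with full statistics, signs turned only with a sample left out, where PSMB6 ran from -0.0762 to 0.16, PSMB8 from -0.0117 to 0.134 and PSMB9 from -0.0237 to 0.35. The cause of these shifts was not tested. Leaving out 1 sample leaves its group with 1, which is then assumed to vary like the other group. In the labels, same-numbered samples are linked only by that number. Their deviations from the group means had a negative correlation of -0.198 over 11955 genes. With the replicate block PSMB2 and PSME2 kept their direction and were not called (edgeR adjusted p = 0.213 and 0.247). Why calls were lost under that pairing was not tested.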
